A study of Rattus norvegicus with 18 samples.

Results

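The urea cycle and the enzymes that break down amino acids were followed as a group of 43 genes through the livers of rats given diethylnitrosamine. The genes were chosen by symbol: 6 of the urea cycle, 9 of aromatic amino acid breakdown, 7 of branched-chain, 8 of methionine, choline and transsulfuration, 5 of glycine and serine, 3 of histidine, and 5 of lysine, proline, glutamine and the transaminases. Of the 43, 42 had a probe set under that name, and all 42 were among the 10448 genes bright enough to be tested. Uroc1, the urocanase of histidine breakdown, had none under that symbol and has no value here. The 42 genes had 50 probe sets of the 31099 on the array, 48 of them above the limit set for low signals. For each gene the one with the highest mean was used, except that for Asl a brighter one was left out because RefSeq gives its accession to another gene.

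Liver was taken from Sprague-Dawley rats, in the normal group at 0 h without treatment and in the other groups after 5, 8, 12, 16 or 18 weeks of diethylnitrosamine, a nitrosamine that liver enzymes turn into a DNA-alkylating agent and that produces liver tumours in rodents. RNA from the right lobe was hybridised to Affymetrix rat whole-genome arrays, 3 for each of the 6 groups. The labels call the 3 arrays technical replicates, so the spread behind each p value is that between arrays and may leave out differences between animals. Every sample carries the same age label (12 weeks) and no untreated liver was sampled later, so time on treatment and age cannot be told apart; dose, sex and whether a piece held tumour are not stated.

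These enzymes are largely a hepatocyte function. Amino acid nitrogen is collected by transaminases and glutaminase, released as ammonia in the mitochondrion, and joined to bicarbonate and aspartate in the urea cycle, while the carbon skeletons are oxidised or used to make glucose. Methionine is activated to S-adenosylmethionine, the methyl donor of the cell, and what is left of it after methyl transfer is either remethylated or passed on to cysteine.

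Members were called lower in treated liver at every time, in the largest number at 16 weeks with the scaling as deposited. At 5 weeks 3 of the 42 tested members were called lower than in normal liver (1.61% of all genes tested) and at 8 weeks 4 (3.12%). At 12 weeks 19 were lower (4.43%), at 16 weeks 28 (5.6%) and at 18 weeks 16 (4.41%). None was called higher at any of these times, where 4.47%, 7.31%, 12.1%, 14.5% and 11% of all genes were, in the same order. A call needed a Benjamini-Hochberg adjusted p under 0.05 in limma, over all genes and two-sided, and a change of at least 2-fold on log2(signal + 16). The median change of the members was -0.25, -0.41, -0.92, -1.15 and -0.83 on the log2 scale at the successive times, and that of all genes 0.04, 0.12, 0.15, 0.16 and 0.11. All 5 comparisons use the same 3 normal arrays and are not independent of each other. In bulk liver, fewer hepatocytes and less RNA per hepatocyte cannot be told apart. The arrays measure RNA, and neither protein nor enzyme activity was measured.

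**Figure D1:**
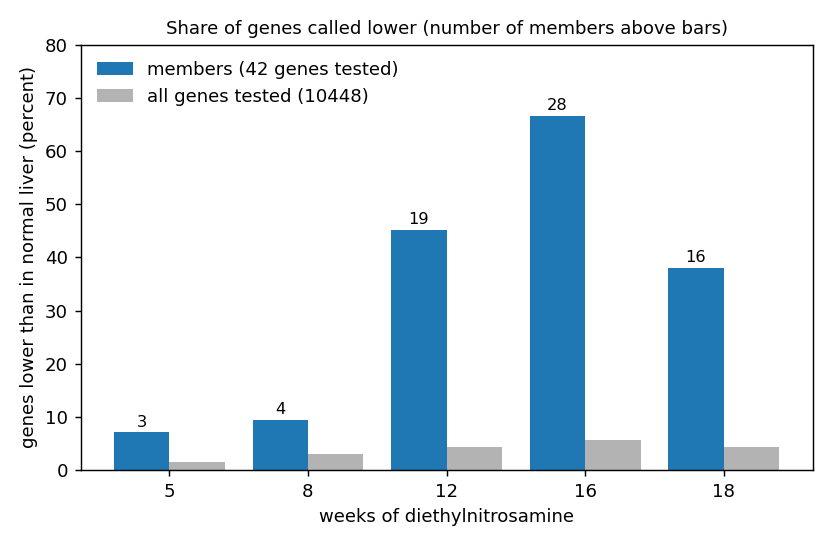
Share of genes called lower than in normal liver at each time, in percent, for the 42 members (blue bars, with the number of genes above them) and for all 10448 genes tested (grey bars). The members' bars stand above the grey ones at every time and are tallest at 16 weeks, at 28 genes.

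These counts depend on how arrays are scaled to each other. With quantile normalization, which gives every array the same distribution of signals, 12 members were called lower at 12 weeks and 15 at 16 weeks (487 and 638 of all 10448 genes). The calls lost at 16 weeks were those of Otc, Asl, Hpd, Hgd, Haao, Aldh6a1, Mat1a, Ahcy, Dmgdh, Cth, Sds, Ftcd and Gls2, and at 12 weeks those of Tat, Haao, Aldh6a1, Mat1a, Ahcy, Cth and Gpt. Asl at 8 and 18 weeks, and Cth and Hgd at 18 weeks, also passed below 2-fold. With each array centred on its median, 31 members were lower at 12 weeks and 38 at 16 weeks (1129 and 1570 of all 10448 genes). The calls gained at 16 weeks were those of Cps1, Ass1, Tat, Tdo2, Fah, Bckdha, Hibadh, Amt, Gcsh and Got1, and at 12 weeks those of Otc, Hpd, Hgd, Tdo2, Bckdha, Bckdhb, Ivd, Mccc1, Dmgdh, Ftcd, Gls2 and Got1. No member was called higher under either scaling, and the members' median at 16 weeks was -0.82 against 0.01 for all genes with quantile normalization and -1.67 against -0.34 with median centring. With the deposited scaling 72.1% of all calls at 16 weeks were upward, and with median centring 34.4% were.

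**Figure D2:**
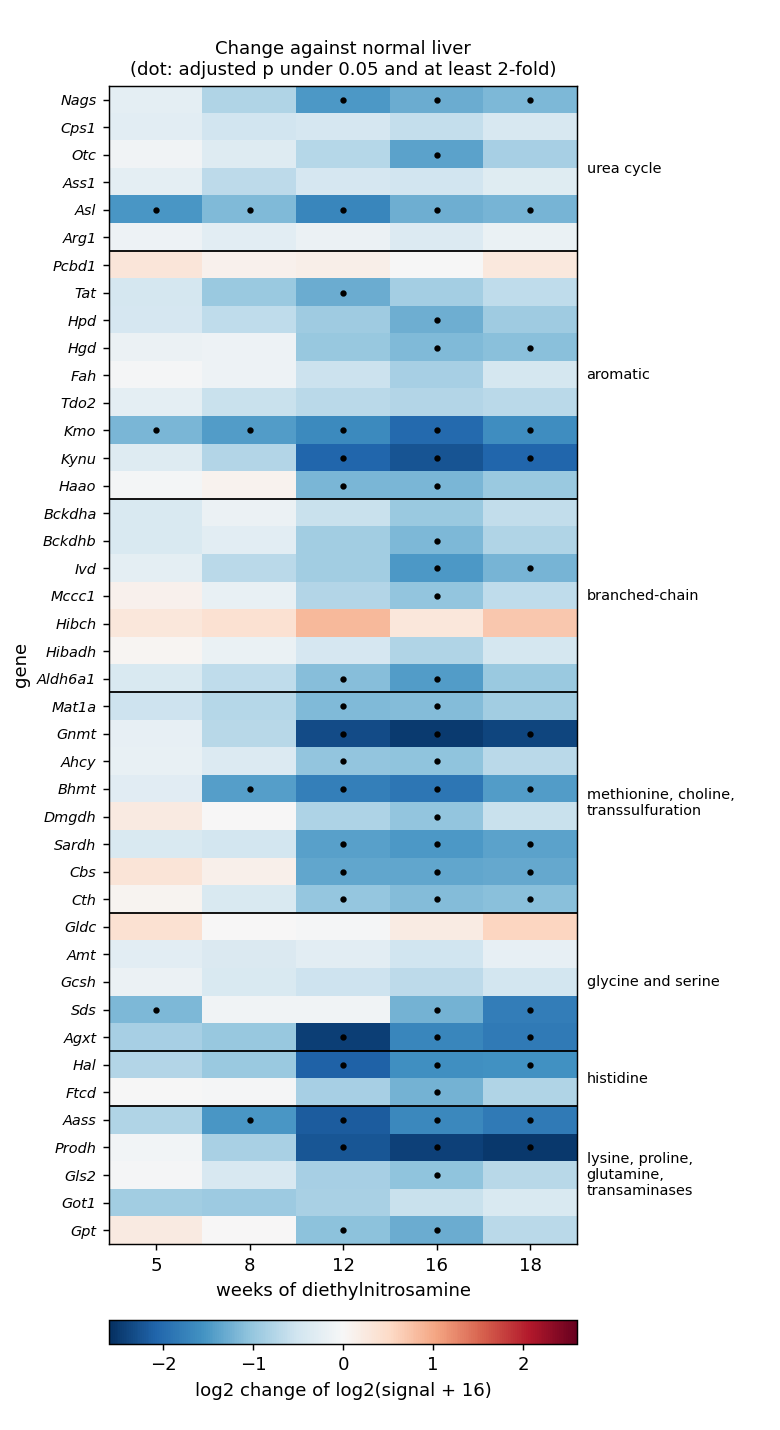
Change of each tested member against normal liver (colour, log2 scale; blue lower, red higher) at 5 to 18 weeks of diethylnitrosamine, grouped by pathway; a dot marks a call. Blue deepens from 12 weeks on in most rows, while Cps1, Ass1 and Arg1 of the urea cycle and the genes of the glycine cleavage system hold no dot.

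Between consecutive times, the step from 8 to 12 weeks held the most member calls. It had 8 members lower and none higher, against 1.86% and 4.55% of all genes. From 5 to 8 weeks 1 member was lower and 1 higher (1.02% and 1.1% of all genes), from 12 to 16 weeks 1 was lower (0.517%) and none higher (0.909%), and from 16 to 18 weeks none was called lower (1.32%) or higher (0.22%). In that last step 38 of 42 members had the higher mean at 18 weeks, against 47.3% of all genes. By limma 30 members passed an unadjusted p under 0.05 there, and 30 an adjusted one, 28 of them higher and 2 lower, all by under 2-fold. Of all 10448 genes 4030 passed the adjusted one, 2110 of them higher and 1920 lower. The members' median difference was 0.24. Among the treated times, the lowest group mean fell at 16 weeks in 28 members, at 12 weeks in 9, at 8 and at 18 weeks in 2 each and at 5 weeks in 1. The last of these was Hibch, which was above normal liver at every treated time.

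Other measures of the arrays moved with time as well. The sum of signals per array was 2.23e+07 to 2.64e+07, and log2 signals correlated at 0.967 to 0.979 within groups and 0.910 to 0.972 between them. The 3'/5' signal ratio of the Gapdh control probe sets, a measure of RNA integrity, had group means of 1.12 in normal liver and 1.47, 2.12, 1.23, 1.26 and 1.32 at the successive treated times. That of the beta-actin control probe sets had group means of 2.36 in normal liver and 3.52, 4.48, 2.69, 2.32 and 2.29. Both ratios were highest at 8 weeks, and their part in the results was not tested. Of 10 hepatocyte markers (secreted proteins such as albumin) all were measured and none was called at any time. Whether their signals were saturated, which would understate a change, was not tested. Apoa2, another secreted hepatocyte protein, is not in this list and was called lower, as given below. The summed signal of the hepatocyte markers was 350954 to 408864 in normal liver, 311605 to 325917 at 5 weeks, 242038 to 274555 at 8, 264789 to 284131 at 12, 239019 to 257546 at 16 and 265482 to 289608 at 18 weeks. Of 10 bile duct and progenitor markers 8 were tested, and 1, 5, 8, 8 and 8 were higher; their summed signal was 2242 to 2453 in normal liver, 3621 to 3871 at 5 weeks, 4912 to 5139.9 at 8, 16527 to 16908 at 12, 19830.2 to 21720.3 at 16 and 18103 to 18419 at 18 weeks. Of 10 stellate cell markers 4, 5, 7, 9 and 6 were higher, and their sum was 5777 to 5877 in normal liver, 11700.3 to 12031 at 5 weeks, 12735 to 13419.7 at 8, 20435 to 20796 at 12, 23809 to 24522 at 16 and 14445 to 15127 at 18 weeks. Of 10 exocrine pancreas markers 5 were tested, of which 3, 3, 3, 4 and 3 were lower and 0, 0, 1, 1 and 0 higher; their sum was 22706 to 24019 in normal liver and, in order of time, 17332 to 17771, 14734 to 15348, 6088 to 6313, 5819 to 6141 and 6004 to 6114. Of 8 mast cell markers 4 were tested and 2, 2, 4, 4 and 3 were higher, with a sum of 251 to 336 in normal liver, then 658 to 828, 961 to 1245, 2688 to 3024, 3879 to 4175 and 1326 to 1507. Of 10 proliferation genes 6, 9, 9, 9 and 8 were higher, with a sum of 2829 to 3225 in normal liver, then 5488 to 5814, 5762 to 6056, 7139 to 7874, 8198 to 8502 and 7903 to 8236. Among the tested macrophage, endothelial and lymphocyte markers at most 2 of a list were called in either direction at any time. At 16 weeks 2 of 8 macrophage markers (25%) and 2 of 9 endothelial ones (22.2%) were lower, and 0 and 1 higher. The largest change of a macrophage marker was -4.32, at 8 weeks. The shares of all genes called lower and higher at each time, given above, are the background of these marker counts too. No deposited value was 0, and the part of cell composition in the results was not tested.

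Start-site regions of 7 members, the member with the largest called change in each pathway for which a sequence was at hand, are given here. These genes were first called lower at different times, from 5 weeks for Asl to 16 weeks for Ivd and Ftcd. Shared regulation was not tested. Each runs 5′ to 3′ on the gene's strand over 300 bases, 250 before and 50 after the transcription start, from RefSeq on GRCr8 (36 of the 43 members have an entry; Agxt has more than 1 start and the most upstream is shown). Capitals mark exact matches, on either strand, to 7 short motifs: TTGCNNAA of C/EBP factors, CAAAGTCC of HNF4, the palindrome of HNF1, ACANNNTGT of the glucocorticoid receptor, TGACGTCA of CREB, TATAAA and CCAAT. None of the matches shown overlaps another.
Asl (chr12:32295658-32295957, + strand): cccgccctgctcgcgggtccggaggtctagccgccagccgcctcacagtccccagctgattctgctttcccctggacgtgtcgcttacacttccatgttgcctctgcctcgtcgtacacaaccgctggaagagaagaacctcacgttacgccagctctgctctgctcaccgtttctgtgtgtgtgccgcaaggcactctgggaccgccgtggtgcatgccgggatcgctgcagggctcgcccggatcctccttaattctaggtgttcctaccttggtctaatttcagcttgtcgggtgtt
Kynu (chr3:48188036-48188335, + strand): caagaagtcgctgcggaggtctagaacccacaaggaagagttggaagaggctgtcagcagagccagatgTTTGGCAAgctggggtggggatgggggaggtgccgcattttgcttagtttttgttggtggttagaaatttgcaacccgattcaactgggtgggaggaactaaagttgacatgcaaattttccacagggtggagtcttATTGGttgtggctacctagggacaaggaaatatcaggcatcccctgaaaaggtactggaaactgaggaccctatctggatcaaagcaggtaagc
Ivd (chr3:126305334-126305633, + strand): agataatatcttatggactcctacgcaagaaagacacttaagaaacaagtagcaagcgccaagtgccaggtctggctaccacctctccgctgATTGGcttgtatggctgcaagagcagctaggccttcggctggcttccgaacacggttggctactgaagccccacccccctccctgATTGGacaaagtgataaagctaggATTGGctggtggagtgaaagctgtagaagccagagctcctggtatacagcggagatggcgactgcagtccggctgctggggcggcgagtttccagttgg
Gnmt (chr9:21752032-21752331, + strand): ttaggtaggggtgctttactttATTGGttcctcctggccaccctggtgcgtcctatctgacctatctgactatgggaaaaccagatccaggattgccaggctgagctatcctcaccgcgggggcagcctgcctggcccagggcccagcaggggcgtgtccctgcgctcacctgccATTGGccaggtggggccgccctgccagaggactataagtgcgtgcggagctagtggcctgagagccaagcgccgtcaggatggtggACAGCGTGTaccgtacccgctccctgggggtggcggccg
Agxt (chr9:101122543-101122842, + strand): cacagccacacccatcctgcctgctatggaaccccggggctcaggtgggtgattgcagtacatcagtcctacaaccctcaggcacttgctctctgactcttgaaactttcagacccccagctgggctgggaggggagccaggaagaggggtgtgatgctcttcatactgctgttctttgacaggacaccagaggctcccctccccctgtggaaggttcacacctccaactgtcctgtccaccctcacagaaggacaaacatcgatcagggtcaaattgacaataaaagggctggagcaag
Ftcd (chr20:12068170-12068469, - strand): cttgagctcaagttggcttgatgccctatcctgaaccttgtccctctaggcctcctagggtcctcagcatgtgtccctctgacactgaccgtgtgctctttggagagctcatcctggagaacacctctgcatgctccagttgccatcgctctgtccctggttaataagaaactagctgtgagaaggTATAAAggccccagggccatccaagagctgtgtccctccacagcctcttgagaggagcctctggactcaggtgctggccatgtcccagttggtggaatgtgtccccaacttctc
Aass (chr4:52628762-52629061, - strand): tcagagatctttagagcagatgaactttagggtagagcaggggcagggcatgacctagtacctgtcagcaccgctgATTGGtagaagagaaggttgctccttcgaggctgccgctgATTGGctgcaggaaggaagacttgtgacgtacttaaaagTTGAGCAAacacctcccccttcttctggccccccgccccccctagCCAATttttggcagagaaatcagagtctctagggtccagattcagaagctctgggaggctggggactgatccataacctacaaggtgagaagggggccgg

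Of 27457 promoters of the same length, 37.8% held CCAAT, as did 21 of the 36 member promoters (58.3%). TTGCNNAA was in 10.5% of all and in 5 members (13.9%), TATAAA in 14.3% and in 5 members (13.9%), and ACANNNTGT in 6.62% and in 3 members (8.33%). CAAAGTCC was in 1.40% of all and in 2 members, Cps1 and Kmo, and the HNF1 motif in 0.346% and in Pcbd1 alone. TGACGTCA was in 1.91% of all promoters and in no member's. Among the sequences shown, Aass and Kynu hold TTGCNNAA, Gnmt holds ACANNNTGT and Ftcd holds TATAAA, while the windows of Asl and Agxt hold none of the 7 motifs. These are matches of letters in short windows and say nothing of factor binding.

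RNA signals of the urea cycle were lowered unevenly, at Asl from 5 weeks on, at Nags from 12 weeks and at Otc at 16 weeks. Of its 6 enzymes 1, 1, 2, 3 and 2 were called lower at the successive times, and none higher. Their median change ran from -0.25 at 5 weeks to -0.94 at 16 weeks. The counts of this and each later pathway stand against 1.61%, 3.12%, 4.43%, 5.6% and 4.41% of all genes called lower at these times. Asl (probe set 1368916_at) is argininosuccinate lyase, which releases arginine and fumarate. Its signals were 9026, 8689 and 9322 on the normal arrays, 3092, 3282 and 3129 at 5 weeks and 3908, 4205 and 4087 at 8 weeks. They were 2793, 2901 and 2660.2 at 12 weeks, 3975, 3651 and 3581 at 16 weeks and 4081, 3883 and 3766 at 18 weeks. Every treated array lay below every normal one, with the 12 weeks arrays lowest and those of 8 weeks above those of 5. The log2 change was -1.50 ± 0.055 (SE) at 5 weeks and -1.20 ± 0.055 at 18 weeks (adjusted p = 2.5e-11 and 6.2e-11), with -1.15 ± 0.055, -1.69 ± 0.055 and -1.27 ± 0.055 at the times between. A second probe set that the deposited annotation calls Asl has an accession that RefSeq gives to Hnrnpab, and it was left out. Its mean signal over all arrays was 5095, above the 4446 of the one used, and its changes are not given here.

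Nags makes N-acetylglutamate, the activator that Cps1 cannot work without. It gave 2679, 3434 and 3139 in normal liver, 1050.3, 1046 and 1145 at 12 weeks, 1285, 1249 and 1210.4 at 16 weeks and 1456, 1391 and 1233 at 18 weeks. These 3 later groups lay well below the normal arrays and did not overlap them, with log2 changes of -1.49 ± 0.11, -1.29 ± 0.11 and -1.17 ± 0.11 (adjusted p = 1.1e-08, 5.1e-08 and 1.9e-07). Otc, which forms citrulline in the mitochondrion, gave 15936, 16724 and 15628 in normal liver, 9583, 9615 and 9579.5 at 12 weeks, 6233, 5976 and 6130.4 at 16 weeks and 8851, 8939.7 and 8643 at 18 weeks. The 16 weeks arrays were the lowest of all, and the change there was -1.39 ± 0.042 (adjusted p = 4.5e-13). At 18 weeks it was -0.87 ± 0.042, under 2-fold.

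The other 3 enzymes of the cycle were called at no time with the deposited scaling, while with median centring Cps1 and Ass1 were called at 16 weeks, at -1.13 and -1.02. Cps1, the entry enzyme that makes carbamoyl phosphate, gave 26600.2, 27810.4 and 25279 in normal liver and 17601, 17131 and 17389.7 at 16 weeks, where it was lowest, at 65.4% of the normal mean. Ass1, which makes argininosuccinate, was lowest at 8 weeks with 18118, 20044 and 19664 against 31036, 32338 and 29262 in normal liver (62.4%). Arg1, the arginase that releases urea, gave 28331, 29630.3 and 26722 in normal liver and 22344, 21805 and 21785 at 16 weeks (77.9%). Their arrays at those times did not overlap the normal ones, and with the deposited scaling no log2 change of the 3 genes went beyond -0.68. These probe sets, like those of Otc, Hpd, Tdo2, Aldh6a1, Mat1a, Gnmt, Bhmt, Cth and Aass, were brighter in normal liver than 99% of probe sets (signal of 14196), and whether such signals were saturated, which would understate a change, was not tested.

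**Figure D3:**
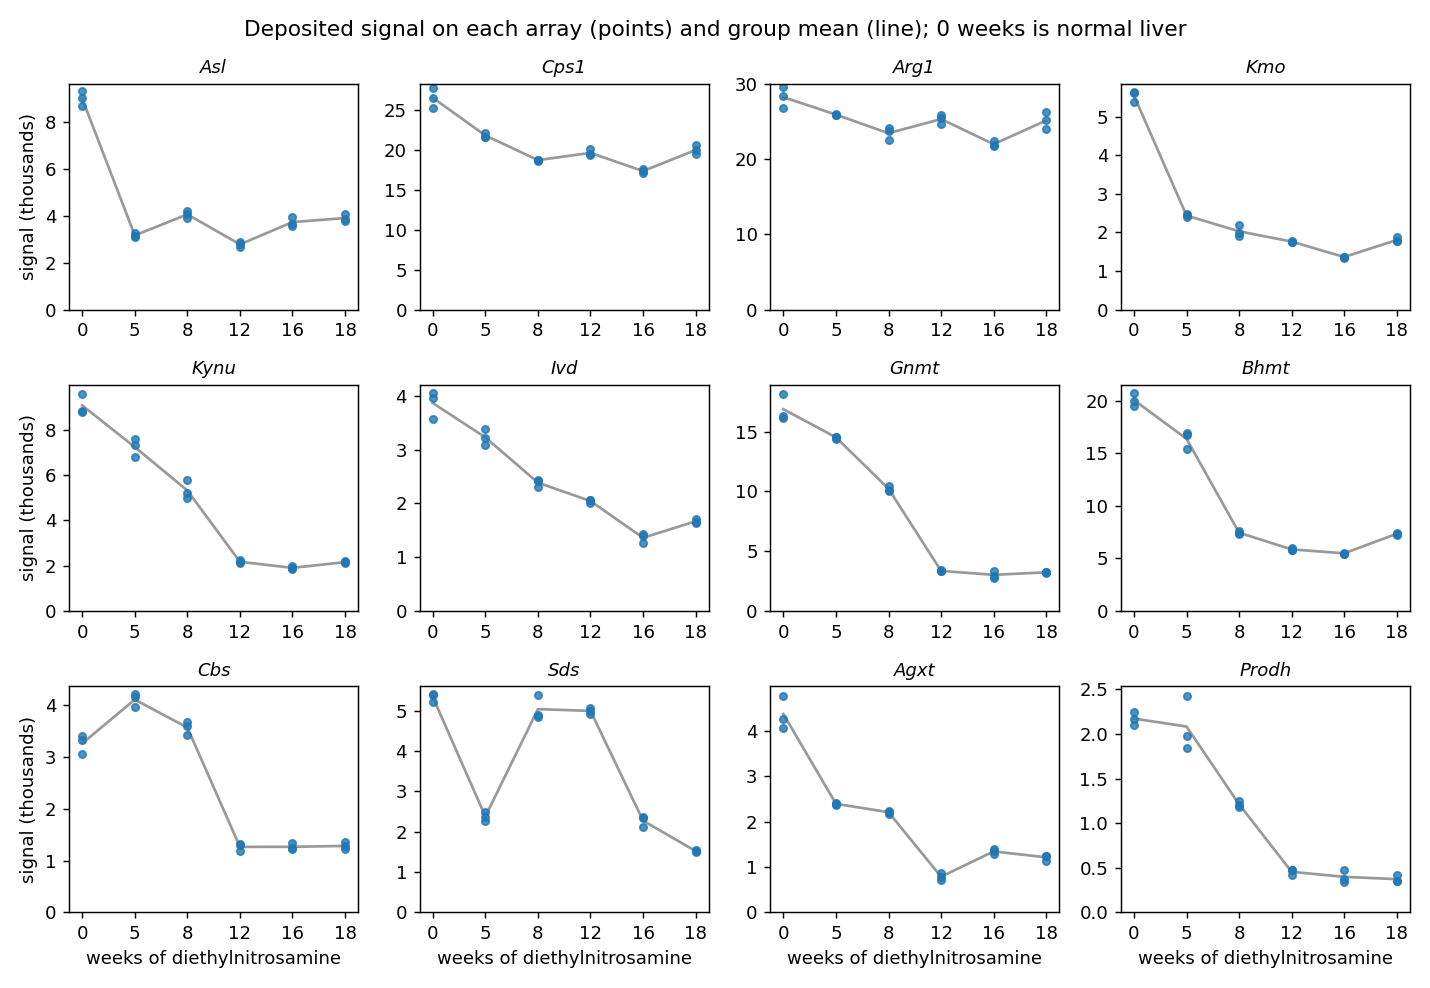
Deposited signal (divided by 1000, linear scale from 0) of 12 members on each array (points) with the mean of each group (line), in normal liver (0 weeks) and at 5 to 18 weeks of diethylnitrosamine. Asl and Kmo are already low at 5 weeks, Kynu, Gnmt, Cbs, Agxt and Prodh are lowest from 12 weeks on, Sds drops at 5, 16 and 18 weeks, and Cps1 and Arg1 keep 65.4% and 77.9% of the normal mean where they are lowest.

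In aromatic amino acid breakdown the largest changes were those of Kynu and Kmo, in the kynurenine branch of tryptophan. Of 9 members 1, 1, 4, 5 and 3 were called lower over the 5 times and none higher, with a median change of -1.14 at 16 weeks. Kmo, kynurenine 3-monooxygenase of the outer mitochondrial membrane (probe set 1368915_at), gave 5643, 5383 and 5617 in normal liver, 2445, 2465 and 2401 at 5 weeks and 1989.8, 2180.0 and 1914 at 8 weeks. It gave 1781, 1753 and 1749.8 at 12 weeks, 1348, 1364 and 1373 at 16 weeks and 1874, 1769 and 1765 at 18 weeks. No treated array overlapped a normal one, and the 16 weeks arrays were lowest, at 24.5% of the normal mean. The log2 changes were -1.18 ± 0.048, -1.45 ± 0.048, -1.65 ± 0.048, -2.01 ± 0.048 and -1.61 ± 0.048, with adjusted p from 8.6e-11 at 5 weeks to 4.2e-14 at 16 weeks.

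Kynu, kynureninase (probe set 1398282_at), was lowered later than Kmo. Its signals were 8856, 8795 and 9605 in normal liver, 7585, 7330.2 and 6827 at 5 weeks and 4989, 5786 and 5198 at 8 weeks, then 2165, 2232 and 2118 at 12 weeks, 1963, 1885 and 1861 at 16 weeks and 2191, 2181 and 2099 at 18 weeks. The last 3 groups lay far below every earlier array, and the change against normal was -2.06 ± 0.060, -2.24 ± 0.060 and -2.07 ± 0.060 (adjusted p = 4.0e-13, 1.2e-13 and 3.9e-13). Haao, the dioxygenase that follows on the way to quinolinic acid and NAD, went from 5105, 5320.0 and 5219 in normal liver and 5462, 5575 and 5533 at 8 weeks to 2245, 2293 and 2300.1 at 12 weeks. Its change was -1.19 ± 0.069 at 12 weeks and -1.20 ± 0.069 at 16 weeks (adjusted p = 9.7e-10 and 7.0e-10). Tdo2, the tryptophan dioxygenase that starts the path, was called at no time with the deposited scaling, with its lowest change of -0.76 ± 0.050 at 16 weeks.

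In the tyrosine path 3 of the 4 enzymes were called at some time. Tat, the glucocorticoid-induced tyrosine aminotransferase, gave 8002, 7654 and 7589 in normal liver and 2876, 3519 and 3164 at 12 weeks, and fell by 1.28 ± 0.066 there (adjusted p = 2.5e-10). Hpd, which makes homogentisate, gave 37505, 40656 and 34184 in normal liver and 15638, 16113 and 14991 at 16 weeks, a change of -1.26 ± 0.061 (adjusted p = 8.5e-11). Neither gene's arrays overlapped the normal ones at these times. Hgd, which opens the ring of homogentisate, changed by -1.14 ± 0.048 at 16 weeks and -1.09 ± 0.048 at 18 weeks (adjusted p = 1.9e-11 and 4.1e-11). Fah, the last enzyme of the path, reached -0.86 ± 0.040 at 16 weeks and was not called. Pcbd1, which regenerates the tetrahydrobiopterin cofactor of phenylalanine hydroxylase, ranged from -0.02 to 0.32 and was not called.

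Signals of the branched-chain amino acid genes were lowered mainly at 16 weeks. Of 7 members 0, 0, 1, 4 and 1 were called lower, with a median of -1.02 at 16 weeks. Ivd, the isovaleryl-CoA dehydrogenase of leucine breakdown (probe set 1370232_at), gave 4063, 3574 and 3964 in normal liver, 3077, 3387 and 3218 at 5 weeks and 2307, 2441 and 2409 at 8 weeks. It gave 2059.8, 2004 and 2067 at 12 weeks, 1394, 1426 and 1261 at 16 weeks and 1704, 1637 and 1659 at 18 weeks. No treated array overlapped a normal one, and the lowest group, at 16 weeks, changed by -1.50 ± 0.059 (adjusted p = 9.5e-12), with -1.20 ± 0.059 at 18 weeks (adjusted p = 1.4e-10). Aldh6a1, the methylmalonate semialdehyde dehydrogenase of valine breakdown, went from 15989.9, 15826 and 15061 in normal liver to 7274, 7482 and 7102 at 12 weeks and 5891, 5510.1 and 5694 at 16 weeks. Its changes were -1.10 ± 0.043 and -1.45 ± 0.043 (adjusted p = 1.0e-11 and 3.7e-13), and its other probe set was lower at 8, 12 and 16 weeks.

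Bckdhb, a subunit of the complex that commits branched-chain keto acids to oxidation, gave 3678, 3601 and 3985 in normal liver and 1878, 1576 and 1561 at 16 weeks, a change of -1.16 ± 0.082 (adjusted p = 7.7e-09). Mccc1, the biotin-carrying subunit of methylcrotonyl-CoA carboxylase, gave 1818, 2097 and 1839 in normal liver and 925, 949 and 936 at 16 weeks, a change of -1.02 ± 0.071 (adjusted p = 6.9e-09). Both sets of 16 weeks arrays lay below all normal arrays; the call of Mccc1 was lost without the second normal array, at -0.95. Bckdha and Hibadh, the partner subunit and a dehydrogenase of valine breakdown, came to -0.96 ± 0.083 and -0.78 ± 0.055 at 16 weeks and were not called. A second Bckdha probe set above the limit for low signals was dim, with a mean of 146. That set gave 0.87, 0.76, 0.61, 0.16 and -0.39 over the 5 times and was not called. Up to 16 weeks its sign was opposite to that of the set used. Hibch, the hydrolase before Hibadh in the valine path, was above normal at every time, from 0.29 at 5 weeks to 0.85 at 12 weeks, and was not called either. Its signals were 1959, 2279 and 2110.5 in normal liver and 3705, 3968 and 3801 at 12 weeks, with no overlap between them.

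Signals of most genes of methionine and choline metabolism were lowered from 12 weeks on. Of its 8 members 0, 1, 7, 8 and 5 were called lower over the 5 times, and the median change was -1.25 at 12 and at 16 weeks and -1.21 at 18 weeks. Gnmt, the glycine methyltransferase that uses up S-adenosylmethionine (probe set 1387672_at), gave 16146, 18134 and 16346 in normal liver, 14586, 14423 and 14560.3 at 5 weeks and 10044, 10473 and 10136 at 8 weeks. Later it gave 3322, 3389 and 3325 at 12 weeks, 3345, 2941 and 2764 at 16 weeks and 3240.5, 3263 and 3179 at 18 weeks. The last 3 groups lay far below all earlier arrays, at 19.8%, 17.9% and 19.1% of the normal mean. The log2 changes were -2.33 ± 0.062, -2.48 ± 0.062 and -2.38 ± 0.062 (adjusted p = 1.6e-13, 6.2e-14 and 1.1e-13), and the step from 8 to 12 weeks alone was -1.61 ± 0.062 (adjusted p = 4.0e-11).

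Bhmt, which remethylates homocysteine with betaine, dropped a step earlier. Its signals were 19934, 19542 and 20738 in normal liver, 15422, 16745 and 16966 at 5 weeks and 7612, 7402 and 7311 at 8 weeks, and 5791, 5970.0 and 5795, 5541, 5453 and 5448 and 7262, 7392 and 7361 at 12, 16 and 18 weeks. The 5 weeks arrays lay below the normal ones and all later arrays far below both. The change was -1.43 ± 0.044, -1.78 ± 0.044, -1.87 ± 0.044 and -1.45 ± 0.044 from 8 weeks on (adjusted p = 2.2e-12 at 8 weeks and 3.3e-14 at 16 weeks), and the step from 5 to 8 weeks was -1.14 ± 0.044 (adjusted p = 1.2e-10). Sardh, the sarcosine dehydrogenase that takes up the product of Gnmt, gave 4295, 4447 and 4329.6 in normal liver and 1643, 1591 and 1663, 1515, 1570.0 and 1550.4 and 1695, 1639 and 1590.2 at 12, 16 and 18 weeks. The later arrays were all below the normal ones, with changes of -1.41 ± 0.045, -1.49 ± 0.045 and -1.40 ± 0.045 (adjusted p = 9.7e-13, 4.5e-13 and 1.0e-12). Its other probe set passed 2-fold at 16 weeks alone, at -1.04.

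Cbs, which condenses homocysteine with serine at the start of transsulfuration, showed an abrupt step. It gave 3067, 3325 and 3398 in normal liver, 4215, 4152 and 3969 at 5 weeks and 3685, 3603 and 3422 at 8 weeks, then 1314, 1181 and 1295 at 12 weeks, 1336, 1246 and 1214 at 16 weeks and 1278, 1353 and 1216 at 18 weeks. The 5 and 8 weeks arrays lay above the normal ones and the later arrays far below them. Changes were -1.36 ± 0.061, -1.36 ± 0.061 and -1.34 ± 0.061 against normal liver (adjusted p = 5.1e-11, 4.1e-11 and 6.2e-11) and -1.49 ± 0.061 between 8 and 12 weeks (adjusted p = 7.3e-11). Cth, which splits cystathionine to cysteine, came to -1.002 ± 0.046, -1.13 ± 0.046 and -1.09 ± 0.046 at these times, and lost the call at 12 weeks without the first or second normal array or the third 12 weeks array, at -0.96 to -0.99.

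Mat1a, the liver form of the enzyme that makes S-adenosylmethionine, gave 28389, 31247 and 27839.6 in normal liver, 12903, 13129 and 13448 at 12 weeks and 12976, 13803 and 12991 at 16 weeks. Its changes were -1.15 ± 0.057 and -1.14 ± 0.057 (adjusted p = 1.7e-10 and 1.5e-10), and at 18 weeks it was -0.90 ± 0.057, under 2-fold. Ahcy, which removes S-adenosylhomocysteine, changed by -1.02 ± 0.042 and -1.04 ± 0.042 at 12 and 16 weeks, the first of which came to -0.997 and was not called without the second normal array. Dmgdh, the dehydrogenase of dimethylglycine, changed by -1.03 ± 0.047 at 16 weeks alone, and by -0.99 without that same array. All 3 genes sat close to the 2-fold limit where they were called.

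Among the glycine and serine enzymes, Sds and Agxt were called lower. Of the 5 members 1, 0, 1, 2 and 2 were called lower. Sds, the serine dehydratase that feeds gluconeogenesis (probe set 1369864_a_at), gave 5408, 5399.6 and 5208 in normal liver, 2477, 2371 and 2276 at 5 weeks and 4887, 5381 and 4849 at 8 weeks. It gave 5064, 4920.0 and 5001 at 12 weeks, 2335, 2118 and 2364 at 16 weeks and 1499, 1539 and 1514 at 18 weeks. The arrays of 8 and 12 weeks lay at or just below the normal level and those of 5, 16 and 18 weeks far below it. The change was -1.16 ± 0.054 at 5 weeks, -1.23 ± 0.054 at 16 weeks and -1.80 ± 0.054 at 18 weeks (adjusted p = 3.3e-10, 3.1e-11 and 5.1e-13). Tested between consecutive times, Sds rose by 1.08 ± 0.054 from 5 to 8 weeks (adjusted p = 2.1e-09) and changed by -1.13 ± 0.054 from 12 to 16 weeks (adjusted p = 1.3e-09).

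Agxt, the aminotransferase that detoxifies glyoxylate with alanine or serine as amino donor (probe set 1387215_at), gave 4785, 4077 and 4271 in normal liver, 2421, 2377 and 2385 at 5 weeks and 2205, 2243 and 2179.6 at 8 weeks. Then it gave 717, 864 and 772 at 12 weeks, 1285, 1347 and 1396 at 16 weeks and 1140.0, 1249.6 and 1248 at 18 weeks. No treated array overlapped a normal one, and the 12 weeks arrays were lowest of all, at 17.9% of the normal mean. Changes of -0.86 ± 0.070 and -0.98 ± 0.070 at 5 and 8 weeks were under 2-fold, and -2.46 ± 0.070, -1.69 ± 0.070 and -1.84 ± 0.070 followed (adjusted p = 3.4e-13, 1.6e-11 and 7.8e-12); the 8 weeks value passed 2-fold, at -1.03, without the second normal array.

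Gldc, Amt and Gcsh, the decarboxylase, aminomethyltransferase and hydrogen carrier of glycine cleavage, did not pass 2-fold at any time with the deposited scaling. Amt ranged from -0.52 to -0.21, with an adjusted p of 1.3e-05 at 16 weeks, and Gcsh from -0.69 to -0.15, with 4.2e-05. With median centring both were called at 16 weeks, at -1.03 and -1.20. Gldc ranged from -0.03 to 0.55, but its probe sets disagreed: another was called lower at 5 and 8 weeks (-1.17 and -1.65) and a further one higher at 18 weeks (1.03). Those 2 were dim, with group means between 58.3 and 215 in signal, so the direction of Gldc is uncertain.

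Signals of both measured histidine genes were lowered. Hal, the histidine ammonia-lyase of the first step, gave 6064, 6402 and 5998 in normal liver, 3599, 3874 and 3364 at 5 weeks and 3027, 3479 and 2977 at 8 weeks. It gave 1445, 1381 and 1426 at 12 weeks, 2039.6, 2012 and 2066 at 16 weeks and 1959.8, 2214 and 2023 at 18 weeks. Every treated array lay below the normal ones and the 12 weeks arrays lowest, with changes of -2.11 ± 0.068, -1.59 ± 0.068 and -1.57 ± 0.068 from 12 weeks on (adjusted p = 1.1e-12, 2.2e-11 and 3.2e-11). Ftcd, the bifunctional enzyme that moves the formimino group to folate, gave 9937, 10357 and 10072 in normal liver and 4378, 4209.7 and 4265 at 16 weeks, a change of -1.24 ± 0.058 (adjusted p = 6.1e-11). Its 12 and 18 weeks values of -0.85 ± 0.058 and -0.78 ± 0.058 were under 2-fold, while the mean log2 ratios in the authors' deposited table were -1.12 and -1.06.

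For lysine and proline breakdown, signals of the first enzymes, Aass and Prodh, were lowered. Of the 5 members with the transaminases 0, 1, 3, 4 and 2 were called lower. Prodh, the mitochondrial proline dehydrogenase (probe set 1372920_at), gave 2248, 2106 and 2164 in normal liver, 1840.4, 2429.9 and 1980.1 at 5 weeks and 1252, 1177 and 1204 at 8 weeks. Its later signals were 468, 474 and 418 at 12 weeks, 343, 373 and 476 at 16 weeks and 354, 412 and 348 at 18 weeks. The 5 weeks arrays overlapped the normal ones, those of 8 weeks lay below and those from 12 weeks on far below, at 20.9%, 18.3% and 17.1% of the normal mean. The changes were -2.22 ± 0.11, -2.42 ± 0.11 and -2.50 ± 0.11 (adjusted p = 2.5e-10, 7.4e-11 and 6.6e-11).

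Aass, the bifunctional synthase that begins lysine breakdown (probe set 1377375_at), gave 15245, 16020.1 and 15295 in normal liver, 9363, 9012 and 8689 at 5 weeks and 5325, 5888 and 5176 at 8 weeks. It gave 3424, 3417 and 3489.5 at 12 weeks, 5045, 4927 and 4481 at 16 weeks and 4393, 4438 and 4075 at 18 weeks. No treated array overlapped a normal one and the 12 weeks arrays were lowest. Changes were -1.51 ± 0.060, -2.17 ± 0.060, -1.69 ± 0.060 and -1.85 ± 0.060 from 8 weeks on (adjusted p = 3.8e-11, 2.4e-13, 2.8e-12 and 1.2e-12).

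Gpt, the cytosolic alanine aminotransferase, went from 3256, 3013 and 3251 in normal liver and 3198, 3174 and 3171 at 8 weeks to 1506, 1397 and 1656 at 12 weeks and 1375, 1224 and 1267 at 16 weeks. Its changes were -1.06 ± 0.072 and -1.29 ± 0.072 (adjusted p = 6.3e-09 and 5.1e-10), the first of which came to -0.998 and was not called without the second 12 weeks array. Gls2, the liver glutaminase that releases ammonia, gave 6637, 6969 and 6754 in normal liver and 3274, 3348 and 3236 at 16 weeks, a change of -1.04 ± 0.038 (adjusted p = 4.3e-12). Got1, the cytosolic aspartate aminotransferase, went the other way in time: its lowest values were -0.90 ± 0.049 and -0.95 ± 0.049 at 5 and 8 weeks, and it was -0.39 ± 0.049 at 18 weeks. It was not called with the deposited scaling, but was called with median centring from 5 to 16 weeks, at -1.02, -1.07, -1.27 and -1.10. The mean of its 9 log2 ratios in the authors' deposited table was -1.03 and -1.07 at 5 and 8 weeks. Of the 42 members, 19 were listed as having an enzyme in the mitochondrion, a list drawn up after the values were seen. Of these 12, and 16 of the other 23, were lower at 16 weeks, and 6 and 13 at 12 weeks. Agxt was counted among the other 23, and the split depends on such choices.

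Among enzymes of amino acid breakdown outside the group, calls were mostly downward and most numerous at 16 weeks. Of 53 such genes 47 were tested, and 3, 4, 6, 17 and 6 were lower at the 5 times and 2, 1, 0, 1 and 0 higher, with a median of -0.79 at 16 weeks. The 17 lower at 16 weeks are 36.2% of those tested, where 5.6% of all genes were lower. At 5, 8, 12 and 18 weeks 6.38%, 8.51%, 12.8% and 12.8% were lower, where 1.61%, 3.12%, 4.43% and 4.41% of all genes were. Oat, which turns ornithine to glutamate semialdehyde, had a mean signal of 14992 ± 327 (SD) in normal liver and means of 6332 ± 73.4, 4835 ± 213 and 1786 ± 158 at the first 3 treated times. It was lower at every time, with changes of -1.24 ± 0.12 at 5 weeks and -3.19 ± 0.12 at 16 weeks (adjusted p = 7.7e-07 and 4.8e-12). Acadsb, the dehydrogenase of isoleucine breakdown, was lowest at 8 weeks, at 189 ± 31.8 against 2166 ± 106 (-3.42 ± 0.085, adjusted p = 2.3e-13). Acmsd, which turns the kynurenine path away from NAD, was also lowest at 8 weeks (-2.76 ± 0.12, adjusted p = 6.9e-11), and Dhtkd1 of lysine breakdown at 16 weeks (-2.03 ± 0.040, adjusted p = 5.7e-15). The 3'/5' ratios were highest at 8 weeks, and their part in the lows of Acadsb and Acmsd was not tested. Csad, which makes hypotaurine from cysteine sulfinate, rose by 1.47 ± 0.052 at 5 and 1.40 ± 0.052 at 8 weeks, Afmid of the kynurenine path by 1.08 ± 0.077 at 5 weeks, and Bcat2, the branched-chain transaminase of most tissues but liver, by 1.15 ± 0.33 at 16 weeks (adjusted p = 0.0065).

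Among isozymes of other tissues and enzymes that make amino acids or polyamines, calls were mostly upward from 8 weeks on. Of 23 genes 18 were tested, 0, 5, 7, 10 and 7 were higher (against 4.47%, 7.31%, 12.1%, 14.5% and 11% of all genes) and 1, 1, 0, 1 and 1 lower, with a median of 1.02 at 16 weeks. Phgdh, the first enzyme of serine synthesis, had a mean signal of 38.6 ± 7.78 in normal liver, below the limit of 87.8 set for low signals, and 240.3 ± 15.01 at 8 weeks, 573 ± 17.2 at 12 weeks and 564 ± 39.3 at 16 weeks. It rose by 3.44 ± 0.15 at 12 weeks (adjusted p = 4.1e-11), a size that depends on the pseudocount of 16. Pycr1, the last enzyme of proline synthesis, rose by 1.97 ± 0.15 at 18 weeks (adjusted p = 1.5e-08), Odc1, which makes putrescine from ornithine, by 1.82 ± 0.058 (adjusted p = 9.6e-13) and the spermine synthase Sms by 1.71 ± 0.21 (adjusted p = 4.1e-06). Glul, the glutamine synthetase of pericentral hepatocytes, was the gene called lower, with changes of -1.18 ± 0.061 at 5 weeks and -1.13 ± 0.061 at 18 weeks.

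Mat2a, the methionine adenosyltransferase of other tissues, was higher by 1.14 ± 0.070 at 8 weeks and 1.03 ± 0.070 at 16 weeks, at times when the liver form Mat1a was at -0.73 and -1.14. Its probe sets disagreed, since their mean gave 0.07 and 0.76 at these times. With median centring Mat2a did not pass 2-fold at 16 weeks, at 0.52.

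**Figure D4:**
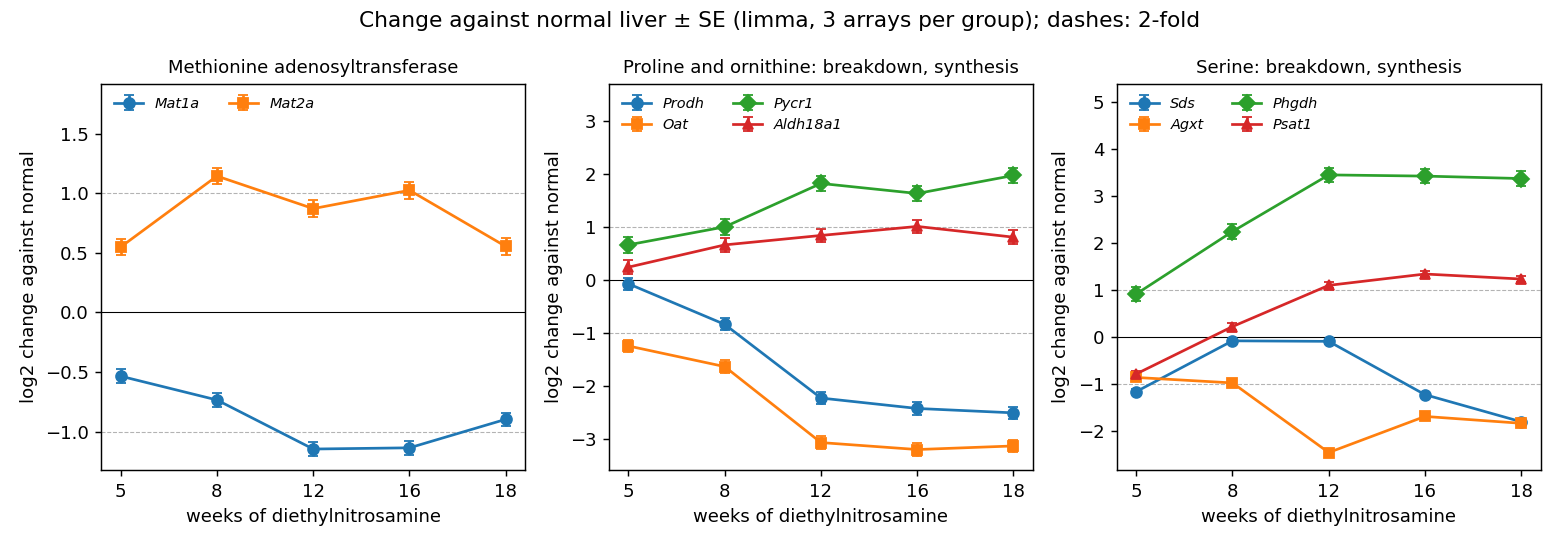
Log2 change against normal liver (± SE, limma, 3 arrays per group) over 5 to 18 weeks for the liver and other form of methionine adenosyltransferase (left) and for enzymes that break down or make proline and ornithine (middle) and serine (right); dashes mark 2-fold. The members Mat1a, Prodh, Sds and Agxt run below 0, while Mat2a, Pycr1 and Phgdh run above it.

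Transporters were called in both directions. Of 22 genes 18 were tested, and 1, 2, 5, 7 and 6 were lower, against 1.61%, 3.12%, 4.43%, 5.6% and 4.41% of all genes. At the same times 0, 2, 3, 3 and 3 were higher, against 4.47%, 7.31%, 12.1%, 14.5% and 11% of all genes. Slc6a13, which carries taurine and GABA, was lowest at 12 weeks (-2.49 ± 0.047, adjusted p = 6.2e-15), Slc16a10, which carries aromatic amino acids, at 18 weeks (-2.47 ± 0.13, adjusted p = 4.0e-10), and the neutral amino acid carrier Slc43a1 at 18 weeks (-1.61 ± 0.10). Slc25a13, the aspartate-glutamate carrier that supplies the urea cycle, came to -1.47 ± 0.064 at 12 weeks. The glycine transporter Slc6a9 rose by 2.36 ± 0.15 at 12 weeks and the cationic amino acid transporter Slc7a1 by 1.92 ± 0.16 at 16 weeks. Slc1a5, which carries glutamine, rose by 1.66 ± 0.26 at 16 weeks, and Slc7a8, a neutral amino acid exchanger, by 1.05 ± 0.40 at 18 weeks (adjusted p = 0.033).

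Of 18 regulators of these enzymes 17 were tested, and 2, 3, 2, 5 and 2 were lower and none higher. Of all genes 1.61%, 3.12%, 4.43%, 5.6% and 4.41% were lower at these times. Onecut1, a transcription factor of hepatocytes and bile ducts, was lower at every time, from -1.73 at 16 weeks to -2.93 at 18 weeks. Hnf4a, the nuclear receptor that maintains hepatocyte genes, was lowest at 8 weeks, at 270.2 ± 8.98 against 2138 ± 11.3 (-2.91 ± 0.067, adjusted p = 1.1e-13), and at -0.72 ± 0.067 at 12 weeks, under 2-fold. The 8 weeks arrays also had the highest 3'/5' ratios, and the part of RNA integrity in this low was not tested. Nr1h4, the bile acid receptor, changed by -1.52 ± 0.12 and Nr3c1, the glucocorticoid receptor, by -1.05 ± 0.065 at 16 weeks, both lower. Of 11 secreted hepatocyte proteins all were tested and Apoa2 alone was called, at 12 and 16 weeks (-1.17 ± 0.056 and -1.46 ± 0.056); their median was -0.23, -0.53, -0.47, -0.62 and -0.48 over the 5 times, against the members' -0.25, -0.41, -0.92, -1.15 and -0.83. These secreted proteins are the hepatocyte markers given above with Apoa2 added, so the 2 sets of values are not separate. The difference between the secreted proteins and the members was not tested, nor was saturation of the secreted proteins' signals. The lists were drawn up with earlier results of these data known.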

How the data were processed

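Per the submitters' processing notes the authors processed the arrays with GCOS 2.0. The deposited value table gives a linear intensity for every probe set and array, already scaled between arrays (a workbook header calls the signals scaled); the scaling target is not stated. A deposited workbook pairs probe sets with gene symbols. Its headers also name log2 ratios of treated to normal arrays, made by the authors for 9 pairs at each time and used here as an alternative. Its 18 signal columns were not used, because the 3 normal ones stand in another row order than the value table.

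Signals were turned to log2(signal + 16). Probe sets above the percentile of 40 of the mean (signal of 87.8, 18659 probe sets) were kept, and each of 10448 genes was represented by its brightest one on average. Names came from RefSeq accessions, current symbols or synonyms, or else the deposited symbol, for 19885 probe sets (13900 genes). The 6 groups of 3 arrays were fitted together in limma 3.58.1 (R 4.3.3). Precision is limited by the 3 arrays per group and, since the labels call them technical replicates, may not cover differences between animals. Tables used pandas 2.3.3 and numpy 2.4.6 under Python 3.11.15, and plots used matplotlib 3.10.9.

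The members and gene lists were chosen with earlier results of these data known. Named genes followed a rule: per pathway up to 4 called members with the largest change, every uncalled member by name, and per list of other genes up to 4 called genes with the largest change plus those called against the majority. Genes named beyond it, chosen after their values were seen, are the remaining called members, Mat2a, Slc43a1 and Slc25a13. The fit was tested on simulated data (16 weeks against normal liver, 10448 genes): it called 97 of 100 genes shifted by 1.5 (log2) and 100 of 100 shifted by 2.5, with 1 false call. All simulated shifts were upward, and the noise was drawn from the spread between arrays. The simulation thus did not cover downward shifts, shifts close to 2-fold or differences between animals. Alternatives were quantile normalization and median centring, pseudocounts of 1 and 64, other filters on low signals, other uses of a gene's several probe sets, the adjusted p alone, another variance model, separate fits of each pair of groups, a block for the replicate number, and each array left out in turn. The authors' log2 ratios and a fit without the 8 weeks arrays were added after the data were seen.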

Additional observations from a re-analysis of the deposited data

Results flagged for a closer look

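Several members differed between consecutive times by a direct test of the step. From 5 to 8 weeks Bhmt changed by -1.14 and Sds by 1.08 on the log2 scale. From 8 to 12 weeks the changes were -1.61 for Gnmt, -1.49 for Cbs, -1.48 for Agxt, -1.39 for Prodh, -1.29 for Kynu, -1.27 for Haao, -1.15 for Hal and -1.06 for Gpt. From 12 to 16 weeks Sds changed by -1.13. Sds is the only member with step calls in both directions, low at 5 weeks, near normal at 8 and 12 weeks and low again at 16 and 18 weeks. With 3 arrays per group, single arrays were not tested for standing apart.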

How the results depend on the processing

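No member changed sign where it was called. Counts of called members that moved by over 1.5 times were, with no fold threshold, 31, 34, 40 and 42 at 5, 8, 12 and 18 weeks and 31, 33, 30 and 30 over the 4 steps; with median centring, 8 at 8 weeks, 31 at 12 weeks and 13 from 8 to 12 weeks; with quantile normalization, 12 at 12 weeks and 15 at 16 weeks; and with the authors' log2 ratios, 7 at 8 weeks. Of all 10448 genes, 5293, 6229, 6903 and 6653 passed with no fold threshold at those times, and 3773, 5284, 2897 and 4030 over the steps. Dropping the fold threshold adds members by construction, and the cause of the other shifts was not tested. Median centring moved the median of all genes at 16 weeks from 0.16 to -0.34, and upward calls at 12, 8, 5 and 18 weeks from 73.2%, 70.1%, 73.5% and 71.4% of all calls to 38.3%, 59.9%, 60.2% and 53.99%. All other alternatives tried stayed within 1.5 times. With each array left out in turn the counts were 3 to 3, 4 to 5, 17 to 20, 26 to 29 and 16 to 17 over the 5 times, and 2 to 2, 8 to 8, 1 to 1 and 0 to 0 over the steps. Beside the lost calls given with the genes, leaving out 1 array brought Hal at 8 weeks to -1.03 (second 8 weeks array), Hgd at 12 weeks to -1.002 (the first or the second 12 weeks array), Bckdha at 16 weeks to -1.0006 (the third 16 weeks array), Haao at 18 weeks to -1.0009 (the third 18 weeks array) and Aldh6a1 at 18 weeks to -1.0006 (the third normal array), all then called.

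The labels do not say that a replicate number marks a shared animal or batch. Deviations from the group means correlated at a median of 0.042 over the 45 pairs with the same number, 9 of them over 0.1, and at -0.016 over the 90 pairs with other numbers, 3 of them over 0.1. The main fit did not take the numbers as pairing the arrays, although pairs with the same number had the higher median. Whether some arrays share an animal or a batch was not tested. With the replicate number as a block the counts of called members stayed at 3, 4, 19, 28 and 16, and at 2, 8, 1 and 0 over the steps, and 210 of 210 calls by gene and time were the same.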
